A study of Homo sapiens with 2 samples.

Results

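The genes described here are TRA2A and TRA2B, which encode splicing activators, and the genes of the kinases that phosphorylate them and the related SR proteins: CLK1, CLK2, CLK3, CLK4, SRPK1 and SRPK2. They were chosen by gene symbol, with earlier results of these data known, and all 8 were found among the 52402 symbols of the count tables. RNA was sequenced from DLD1, a human colorectal adenocarcinoma cell line, in 2 libraries. Of these, 1 is labelled as a knockout of HERV-R, an endogenous retrovirus whose envelope (env) gene is named in the study's title, and the other library is labelled as the wild-type control. The labels give both the same treatment text, which is transfection of a Cas9 vector and a guide RNA vector followed by hygromycin selection of colonies. Whether the control received a guide, and whether a library came from 1 clone or several, was not stated in the labels.

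TRA2 proteins bind GAA-rich sequences in exons and promote inclusion of those exons in the mature mRNA. Like SR proteins they carry stretches rich in arginine and serine, and phosphorylation of these stretches controls where the proteins sit in the cell and what they bind. SRPK kinases act mainly in the cytoplasm and promote entry of SR proteins into the nucleus. CLK kinases act in the nucleus and release SR proteins from nuclear speckles. TRA2B limits its own amount by activating an exon of its own transcript that blocks production of the protein.

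There was 1 library per group, so the differences below have no replicate check and carry no p-value. The library labelled knockout held 16406308 counts and the control 21881122. Values are CPM, counts scaled to a library total of 1000000, and intervals are exact 95% intervals of the counting error only. ERV3-1, which encodes the HERV-R envelope protein, had 125 counts (7.62 CPM) in the library labelled knockout and 127 counts (5.80 CPM) in the control, a ratio of 1.31 (1.02 to 1.69). Its RNA was thus not lower in the library labelled knockout, and a count over a whole gene does not show a small edit. Of 10 colorectal epithelial markers 7 reached a mean of 1 CPM. Their summed level over all 10 was 5546 CPM in the library labelled knockout and 10887 CPM in the control, with KRT20 and CDX1 at 0 counts in both. Most of that gap lies in the keratins KRT8 (1876 CPM in the library labelled knockout, 4138 CPM in the control) and KRT18 (1741 and 4967 CPM). CDH1 had 703.8 and 854.3 CPM in the same order, EPCAM 749.8 and 700.6 CPM, VIL1 175.2 and 123.2 CPM and CDX2 298.2 and 99.4 CPM, so the epithelial markers did not move one way. Of 6 fibroblast, 6 blood and immune and 4 endothelial markers, 1, 1 and 0 reached that mean, and their summed levels were 2.68, 1.34 and 0.427 CPM in the library labelled knockout and 5.76, 2.65 and 0.640 CPM in the control. The part of these shifts in the results was not tested. In a bulk library, fewer cells of a type and less RNA per cell cannot be told apart.

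Scaled by library totals, both TRA2 genes were about as much higher in the library labelled knockout as CLK1, CLK3 and CLK4 were lower. CLK2 was higher, from few counts, and the SRPK genes went opposite ways by smaller amounts. The size rule asked for a 2-fold difference in either direction, that is a log2 ratio outside the span of -1 to 1, after 1 CPM was added to both values; 12.5% of the compared genes met it. All 8 members reached the minimum mean of 1 CPM. Of these 8, 1 was at least 2-fold higher (TRA2A), where 6.78% of the 12644 compared genes were, and 2 were at least 2-fold lower (CLK1 and CLK3), where 5.69% were. The other 5 lay between, with TRA2B at 0.97 and CLK4 at -0.97 just short of the rule. At 1.5-fold TRA2B and CLK4 were added, which gives 5 of 8 members where 33.5% of compared genes passed, 2 of them higher (20.3% of compared genes) and 3 lower (13.2%). The median log2 ratio was 0.18 over the members and 0.12 over all compared genes. With 4 members above 0 and 4 below, the median describes none of the families.

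**Figure D1:**
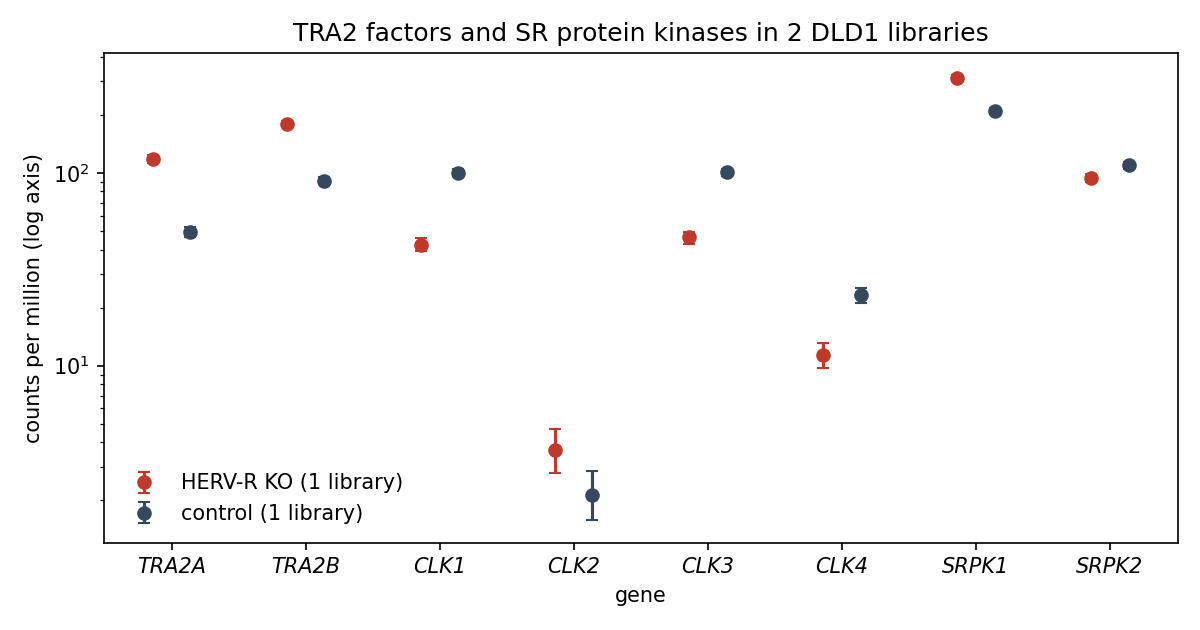
Level of each member in the library labelled HERV-R KO (red) and the control (dark), in CPM on a log axis; bars are exact 95% intervals of the counting error, and each point is 1 library. TRA2A and TRA2B lie higher in the library labelled knockout, while CLK1, CLK3 and CLK4 lie lower and their intervals do not overlap.

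TRA2A, on chromosome 7 (GRCh38, 23504780 to 23532041, minus strand), had 1931 counts (117.7 CPM) in the library labelled knockout and 1074 counts (49.1 CPM) in the control. It was 2.40-fold higher (95% interval 2.22 to 2.59), and its log2 ratio exceeded that of 96.98% of compared genes. TRA2B, on chromosome 3 (185915906 to 185938136, minus strand), had 2945 counts (179.5 CPM) in the library labelled knockout and 1992 counts (91.0 CPM) in the control. TRA2B was 1.97-fold higher (1.86 to 2.09). The TRA2A interval lies wholly above that of TRA2B. Summed, the TRA2 genes had 297.2 CPM in the library labelled knockout and 140.1 CPM in the control, 2.12-fold higher (2.03 to 2.22).

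CLK1 lies on chromosome 2 (200853009 to 200864744, minus strand) and encodes a dual-specificity kinase of SR proteins. It had 697 counts (42.5 CPM) in the library labelled knockout and 2187 counts (99.9 CPM) in the control, 2.35-fold lower (2.16 to 2.57). CLK3, on chromosome 15 (74598500 to 74645414, plus strand), had 758 counts (46.2 CPM) in the library labelled knockout and 2200 counts (100.5 CPM) in the control, 2.18-fold lower (2.003 to 2.37). CLK4, the closest relative of CLK1, lies on chromosome 5 (178602664 to 178630615, minus strand). It had 186 counts (11.3 CPM) in the library labelled knockout and 506 counts (23.1 CPM) in the control, 2.04-fold lower (1.72 to 2.43). Of all compared genes, 3.77% had a log2 ratio below that of CLK1, 4.60% below that of CLK3 and 6.07% below that of CLK4.

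These 3 kinases kept nearly the same balance among themselves. The count ratio of CLK1 to CLK3 was 0.920 in the library labelled knockout and 0.994 in the control, and the quotient of these ratios was 0.925 (0.820 to 1.04). The quotient was 0.867 (0.716 to 1.05) for CLK1 over CLK4 and 0.937 (0.775 to 1.14) for CLK3 over CLK4. All 3 intervals include 1, so the differences in their fold changes were within counting error, and differences as large as those bounds are not excluded by it.

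Promoter sequences are shown for the 3 CLK genes that were lower together and for TRA2B, which was higher, so that they can be read side by side. They come from RefSeq (GRCh38.p14) and run from 250 bases before to 50 bases after an annotated transcript start. The promoter table used holds 12 starts of 7 members; the TRA2A promoter was not analysed here. CLK1 is at chr2:200864609-200864908 (minus strand, the first of 2 starts), CLK3 at chr15:74615586-74615885 (plus strand, the second of 2 starts), CLK4 at chr5:178627001-178627300 (minus strand) and TRA2B at chr3:185937965-185938264 (minus strand). Capitals mark CGTCA or its reverse complement TGACG, the half-site of the cAMP response element, which was chosen after the sequences had been read.
CLK1: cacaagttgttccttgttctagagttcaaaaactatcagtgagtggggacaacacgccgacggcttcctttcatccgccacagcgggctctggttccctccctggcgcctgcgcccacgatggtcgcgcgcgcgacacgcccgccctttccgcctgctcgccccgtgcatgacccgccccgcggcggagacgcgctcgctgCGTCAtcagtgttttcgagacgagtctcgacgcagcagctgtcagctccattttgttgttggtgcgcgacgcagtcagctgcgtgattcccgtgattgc
CLK3: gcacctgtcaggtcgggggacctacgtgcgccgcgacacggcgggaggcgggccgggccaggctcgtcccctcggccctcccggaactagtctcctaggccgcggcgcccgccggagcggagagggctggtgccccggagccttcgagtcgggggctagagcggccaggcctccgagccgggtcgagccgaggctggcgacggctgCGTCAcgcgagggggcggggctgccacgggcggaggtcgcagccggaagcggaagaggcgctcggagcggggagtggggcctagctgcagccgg
CLK4: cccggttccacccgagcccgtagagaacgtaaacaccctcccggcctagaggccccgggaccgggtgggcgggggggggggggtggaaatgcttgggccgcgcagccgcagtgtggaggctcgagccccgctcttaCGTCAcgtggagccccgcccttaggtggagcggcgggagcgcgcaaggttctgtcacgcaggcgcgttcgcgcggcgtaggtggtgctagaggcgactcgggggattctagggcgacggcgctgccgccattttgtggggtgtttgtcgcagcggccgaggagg
TRA2B: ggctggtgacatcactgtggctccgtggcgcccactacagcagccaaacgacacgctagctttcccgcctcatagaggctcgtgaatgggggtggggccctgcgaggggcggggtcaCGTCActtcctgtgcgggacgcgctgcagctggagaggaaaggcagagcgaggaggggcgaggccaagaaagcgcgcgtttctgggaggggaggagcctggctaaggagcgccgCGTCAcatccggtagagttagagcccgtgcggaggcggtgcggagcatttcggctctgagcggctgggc
The half-site stands at base -49 in CLK1, -44 in CLK3 and -114 in CLK4, and at -133 and -19 in TRA2B, counted to its first base from the transcript start as 0. It was found in 6 of the 12 promoters of the members (50%) and in 24.6% of 35116 promoters of the same length. Of the 6, 2 are overlapping windows of CLK1 that share 1 site. The half-site was picked from these same promoters, so the gap between the 2 shares is no test of enrichment. The 35116 were also not matched to the members for their content of G and C bases. The half-site was in none of the single CLK2 and SRPK1 promoters and in 1 of 4 of SRPK2. The first CLK3 start, which is not shown, has neither the half-site nor a GC box. Letters that match are no measure of binding, and genes that were higher and genes that were lower both carry them. The full element, TGACGTCA, was in none of the 12, against 1.85% of all promoters. The GC box bound by SP1, GGGCGG or CCGCCC, was in each of the 4 promoters shown and in 45.0% of all. The 4 were picked from the 12, and the box was missing from SRPK2 starts 1, 3 and 4 as well as the first CLK3 start. The other promoters not shown have it.

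CLK2 is the member with the least certain value. Its row had 60 counts (3.66 CPM) in the library labelled knockout and 47 counts (2.15 CPM) in the control, a ratio of 1.70 (1.14 to 2.55). The symbol stands on 2 rows, of which 1 holds all the counts. The gene lies on chromosome 1 (155262868 to 155278491, minus strand), and 7 adjoining protein-coding genes there, CLK2 included, have a symbol on 2 rows. These 7 had 0 to 220 counts in the library labelled knockout (median 15) and 0 to 314 in the control (median 9). The other 7 protein-coding genes within 100 kb had 3 to 1764 counts (median 870) in the library labelled knockout and 4 to 1275 (median 577) in the control. SCAMP3, a membrane trafficking gene next to CLK2, had 15 counts in the library labelled knockout and 9 in the control. FDPS, an isoprenoid synthesis gene just past the doubled stretch, had 1764 and 1275 counts in the same order, the most of this window. The 2 groups overlap: THBS3, on 1 row, had 65 and 193 counts, and MTX1, on 2 rows, had 220 and 314. Reads that fit both copies can be lost in counting; whether this happened was not tested. The level of CLK2, its ratio and its place in the family are therefore uncertain.

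**Figure D2:**
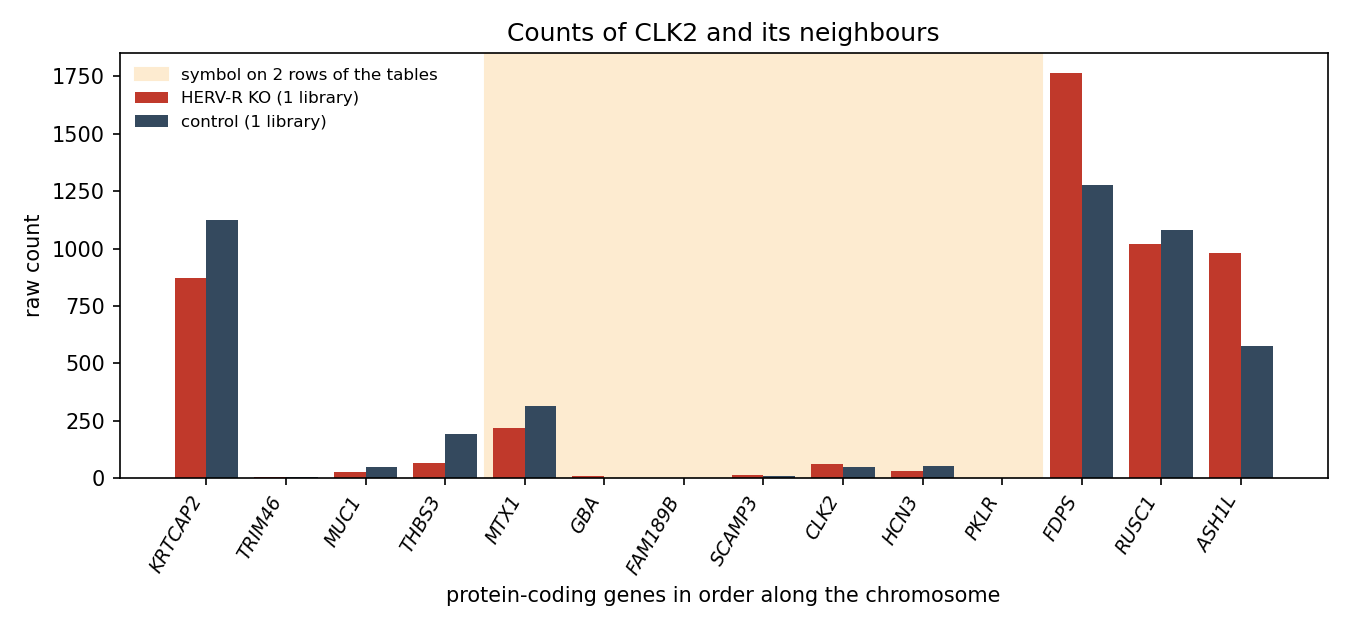
Raw counts of CLK2 and the protein-coding genes within 100 kb of it, in their order along chromosome 1, in the library labelled HERV-R KO (red, left bar) and the control (dark, right bar). The 7 genes whose symbol stands on 2 rows (shaded), CLK2 with 60 and 47 counts among them, have at most 220 counts in the library labelled knockout and 314 in the control.

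SRPK1, on chromosome 6 (35832966 to 35921342, minus strand), was the member with the most counts in both libraries. It had 5115 counts (311.8 CPM) in the library labelled knockout and 4587 counts (209.6 CPM) in the control, 1.49-fold higher (1.43 to 1.55). SRPK2, on chromosome 7 (105110704 to 105399308, minus strand), had 1542 counts (93.99 CPM) in the library labelled knockout and 2390 counts (109.2 CPM) in the control, 1.16-fold lower (1.09 to 1.24). Neither passed the size rule, with log2 ratios of 0.57 and -0.21. SRPK1 outweighed SRPK2 by 3.32 counts to 1 in the library labelled knockout and by 1.92 to 1 in the control, and the quotient was 1.73 (1.60 to 1.87). Summed, the SRPK genes had 405.8 CPM in the library labelled knockout and 318.9 CPM in the control, a ratio of 1.27 (1.23 to 1.32). SRPK3, the muscle-enriched kinase of this family and no member here, had 0 counts in the library labelled knockout and 4 in the control.

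**Figure D3:**
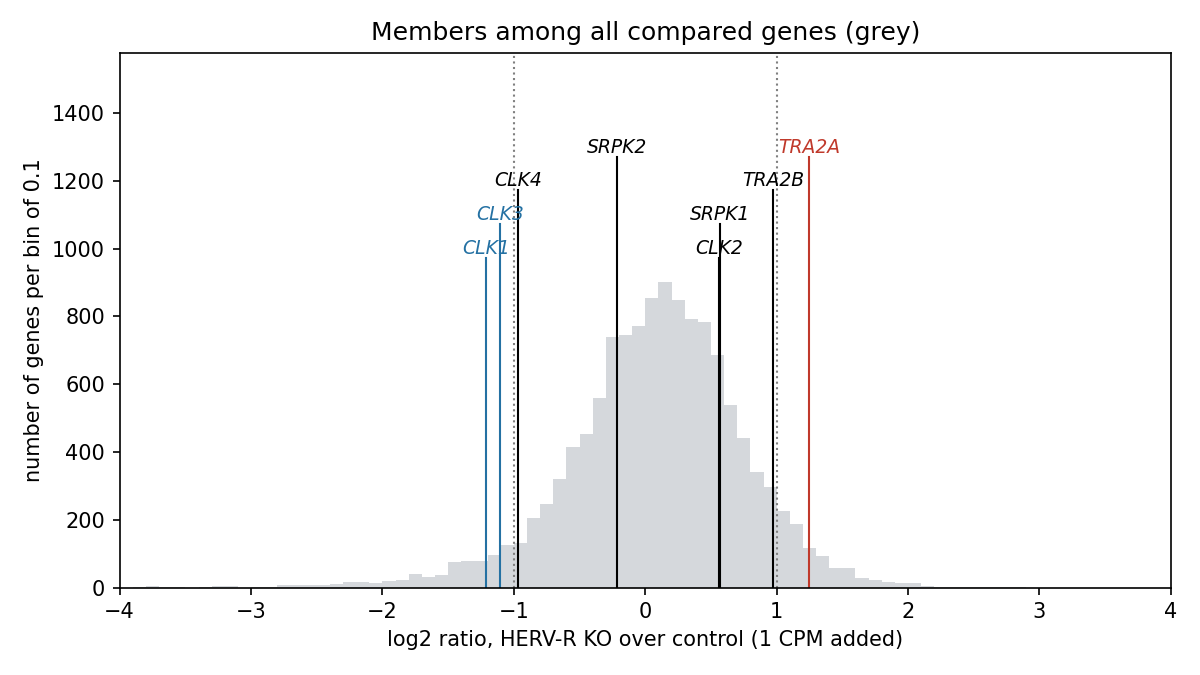
Histogram of the log2 ratio (library labelled HERV-R KO over control, 1 CPM added) of the 12644 compared genes in grey, with a line for each member and dotted lines at the size rule of -1 and 1; ratios outside -4 to 4 are not drawn. CLK1 and CLK3 (blue) lie below -1 and TRA2A (red) above 1, with CLK4 and TRA2B just inside.

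The fold changes depend on how the libraries are scaled. The trimmed mean of M values (TMM), the upper quartile and the median of gene ratios shift log2 ratios, before a pseudocount is added, by -0.12, -0.14 and -0.16. Higher genes made up 54.4% of all genes past the rule with library totals, and 40.6%, 38.5% and 36.5% with those scalings. Under each of the 3, TRA2A, CLK1 and CLK3 still passed and CLK4 passed as well, at -1.08 with TMM. The likeness in size of the TRA2 and CLK differences rests on library totals. With the median of gene ratios TRA2A was at 1.09 and TRA2B at 0.81, and CLK1, CLK3 and CLK4 at -1.37, -1.26 and -1.12. A comparison of genes within a library is free of this choice.

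Within the libraries, CLK counts were a smaller fraction of the TRA2, SRPK and SR protein counts in the library labelled knockout. TRA2 genes had 2.87 counts per CLK count in the library labelled knockout and 0.621 in the control, and the quotient was 4.62 (4.30 to 4.96). CLK genes had 0.256 counts per SRPK count in the library labelled knockout and 0.708 in the control, a quotient of 0.361 (0.338 to 0.385). The 12 SR protein genes SRSF1 to SRSF12, which encode the substrates of these kinases, had 22.02 counts per CLK count in the library labelled knockout and 5.17 in the control, a quotient of 4.26 (4.02 to 4.51). The SR protein and TRA2 sums moved nearly together, with 7.68 SR protein counts per TRA2 count in the library labelled knockout and 8.33 in the control, a quotient of 0.922 (0.879 to 0.968). Gene length cancels in the quotient of single genes but not fully in that of sums. The quotients of the CLK sum hardly rest on CLK2, which held 60 of 1701 CLK counts in the library labelled knockout and 47 of 4940 in the control.

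**Figure D4:**
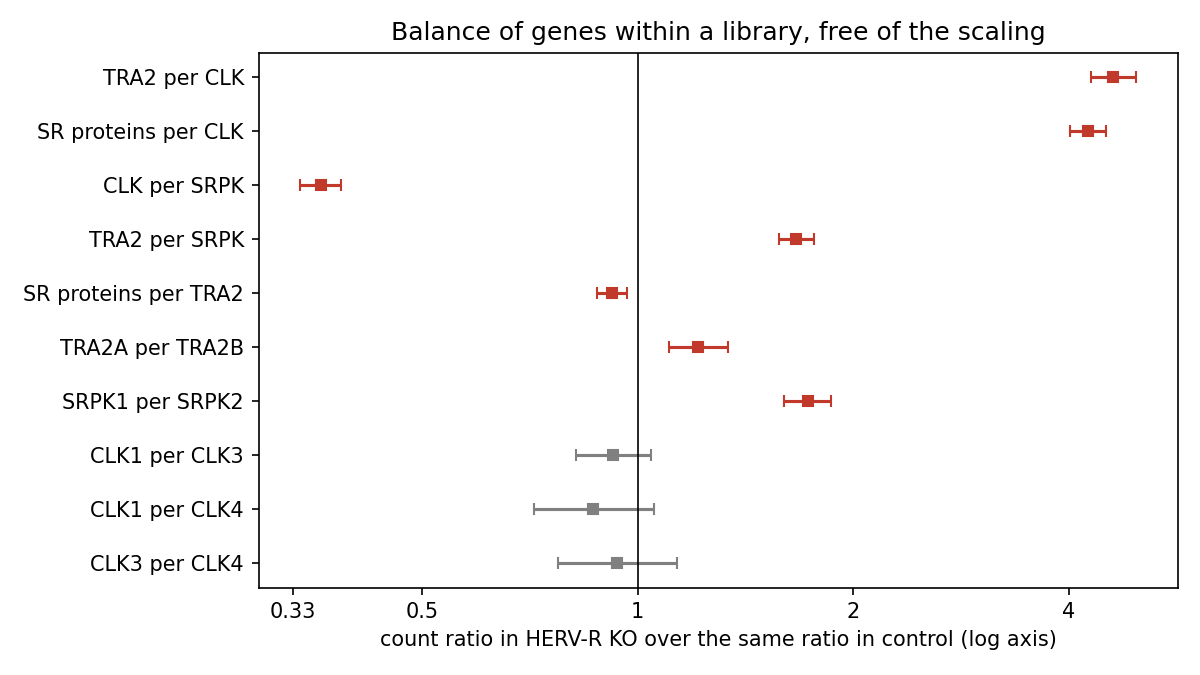
Ratio of the counts of 2 genes or families in the library labelled HERV-R KO, divided by the same ratio in the control, on a log axis with exact 95% intervals of the counting error. TRA2 per CLK (4.62) and SR proteins per CLK (4.26) lie far above 1 and CLK per SRPK (0.361) far below, while the grey intervals of the 3 CLK pairs include 1.

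To set the genes against one another, levels were divided by the length of the principal transcript in GENCODE 29, which runs from 1845 bases for TRA2A to 4592 bases for SRPK1. On this scale of CPM per kb the order in the library labelled knockout was SRPK1 (67.9), TRA2A (63.8), TRA2B (60.8), SRPK2 (25.4), CLK3 (25.03), CLK1 (22.5), CLK4 (4.41) and CLK2 (1.89). In the control it was CLK3 (54.5), CLK1 (52.9), SRPK1 (45.7), TRA2B (30.8), SRPK2 (29.5), TRA2A (26.6), CLK4 (9.01) and CLK2 (1.11). Among neighbours in this order, SRPK1 and TRA2A, TRA2A and TRA2B, SRPK2 and CLK3, and CLK3 and CLK1 had overlapping counting intervals in the library labelled knockout. In the control CLK3 and CLK1, and TRA2B and SRPK2, had overlapping intervals. By the principal transcript, CLK3 and CLK1 thus had the highest levels per length in the control and the fifth and the sixth in the library labelled knockout. The order depends on the length used: divided by the union of all annotated exons (20443 bases for CLK3 and 11769 for TRA2B), CLK3 had 2.26 CPM per kb in the library labelled knockout and 4.92 in the control. In the control SRPK1 (31.3), CLK1 (19.3), SRPK2 (17.2), TRA2A (13.96) and TRA2B (7.74) then lay above CLK3.

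Per length, CLK1, CLK3 and CLK4 took similar shares of the CLK sum in both libraries, and CLK2 a larger share in the library labelled knockout. CLK3 took 46.5% of it in the library labelled knockout and 46.3% in the control, CLK1 41.8% and 45.0%, CLK4 8.20% and 7.66%, and CLK2 3.51% and 0.945%. TRA2A took 51.2% of the TRA2 sum in the library labelled knockout and 46.3% in the control. SRPK1 took 72.8% of the SRPK sum in the library labelled knockout and 60.7% in the control. These shares rest on the length used. By the exon union, a length set against them after the values were seen, TRA2A took 68.7% of the TRA2 sum in the library labelled knockout and 64.3% in the control, CLK1 63.7% and 69.7% of the CLK sum, and CLK3 17.5% and 17.7%.

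The members also share an annotation that the choice did not use. In GENCODE 29, 7 of the 8 genes have at least 1 transcript marked for nonsense-mediated decay, the removal of mRNAs with an early stop codon, and the same 7 have at least 1 with a retained intron. CLK2 has neither. Of 19969 protein-coding genes, 35.6% have a transcript of the first kind, 46.1% of the second and 25.1% of both. These shares were not matched to the members for expression or for the number of transcripts, which runs from 7 (CLK2) to 27 (CLK3). Retained-intron transcripts number 8 each for TRA2B, CLK1 and CLK3, 7 for CLK4, 4 each for TRA2A and SRPK1, and 2 for SRPK2. Counts per gene do not tell productive transcripts from these, so a change in splicing of the members was not analysed here. In sequence the members are nearly distinct from other genes: at most 3.27% of the 50-base words in any member's transcripts occur in a transcript of another gene, for CLK2 with its processed pseudogene CLK2P1, which had 0 counts in both libraries. The 3' part of SRPK2 lies beside KMT2E on the other strand, and the gene spans overlap in RefSeq; KMT2E had 1433 counts in the library labelled knockout and 1322 in the control. The use of strand in counting is not stated in the labels.

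The genes around the members were described with 9 lists. The lists were chosen with earlier results of these data known, so the counts below describe them and are no independent support. Of their 102 genes 93 were measured, of which 17 (18.3%) passed the size rule upward and 0 downward, beside 6.78% and 5.69% of all compared genes. A count of 1 or 0 in lists this short is near that share and says little about the list. The SR protein genes had the highest median. Of its 11 measured genes 7 passed upward and 0 downward, and the median log2 ratio was 1.24, beside 0.12 for all compared genes. SRSF6 had 223.3 CPM in the library labelled knockout and 60.7 CPM in the control, 3.68-fold higher (3.45 to 3.92). SRSF2, SRSF3 and SRSF8 were 3.28-fold, 3.19-fold and 3.05-fold higher, and SRSF1 2.69-fold. Of the 11, 10 had a log2 ratio above 0, and SRSF4 was 1.31-fold lower (1.23 to 1.39). SRSF11 was nearly level, with a ratio of 1.07 (1.02 to 1.12). SRSF9 had 278.5 CPM in the library labelled knockout and 220.5 CPM in the control. With each other scaling 6 of the 11 passed.

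Of 13 measured genes of other kinases that act on splicing factors, among them members of the DYRK, HIPK and CDK families and PRPF4B, 0 passed the rule in either direction, and the median was 0.22. HIPK1 had 152.9 CPM in the library labelled knockout and 117.2 CPM in the control, and TOP1, a topoisomerase that can also phosphorylate SR proteins, had 283.7 and 243.96 CPM in the same order. DYRK3, which is related to the CLK kinases, had the lowest ratio of this list (-0.76) from 19 counts against 58. Before 1 CPM was added it was 2.29-fold lower (1.34 to 4.07). With a pseudocount of 0.1 CPM, 1 gene of this list passed downward. Of 7 phosphatase genes, 0 passed the rule (median 0.32). PPP1CB, a catalytic subunit of protein phosphatase 1, had 376.1 CPM in the library labelled knockout and 379.1 CPM in the control, and PPP1CC had 302.6 and 337.7 CPM.

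The next list joins SRPK chaperones and SR protein transport with the mRNA export gene NXF1 and the genes SAFB, SAFB2 and SLTM. Among its 11 genes, 3 were higher and 0 lower (median 0.48). HSP90AA1, a chaperone that holds SRPK in the cytoplasm, had 2534 CPM in the library labelled knockout and 687.4 CPM in the control, 3.69-fold higher (3.62 to 3.76). NXF1, the mRNA export receptor, was 2.25-fold higher and SLTM, a nuclear matrix protein of the SAFB family, 2.24-fold, but with the median of gene ratios only HSP90AA1 passed. HSP90AB1 had 2101 CPM in the library labelled knockout and 1520 CPM in the control. Of 10 TRA2 binding partners, 5 were higher and 0 lower (median 0.98), and 3 of the 5 (SRSF1, SRSF3 and SRSF10) are also on the SR protein list. The count of higher partners was 4 with each other scaling. KHDRBS3, a relative of the splicing regulator SAM68, was 3.05-fold higher from 142 counts against 62. The most abundant partner, HNRNPA1, had 1609 CPM in the library labelled knockout and 1305 CPM in the control.

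Of 21 SR-related cofactors, 3 were higher and 0 lower (median 0.43). THRAP3 and BCLAF1, related proteins with arginine and serine rich stretches, were 2.94-fold and 2.90-fold higher, and ACIN1 2.05-fold, which falls under the rule with each other scaling. The most abundant of the list were SRRM2, a core protein of nuclear speckles (420.9 CPM in the library labelled knockout and 355.7 CPM in the control), and U2AF2 (295.3 and 157.2 CPM). Of 14 factors of nonsense-mediated decay, 1 was higher, RBM8A, a part of the exon junction complex (2.05-fold; 86.0 and 41.9 CPM), and 0 lower (median 0.61). EIF4A3, the helicase of that complex, had 199.2 CPM in the library labelled knockout and 136.2 CPM in the control. With each other scaling 0 of these passed. Of 6 genes tied to SRPK1 signalling, 1 was higher, the AKT phosphatase PHLPP1 (2.03-fold; 110.3 and 54.3 CPM), which also missed the rule with each other scaling (list median 0.24). AKT1 had 138.8 CPM in the library labelled knockout and 124.1 CPM in the control, and VEGFA, whose splicing SRPK1 is known to influence, had 231.6 and 229.1 CPM.

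Genes whose exons TRA2 proteins are known to bind were read at the level of the whole gene. Of 8 listed, 5 were measured and 0 passed the rule, with a median of 0.10. NASP, a histone chaperone with a TRA2-dependent exon, had 245.2 CPM in the library labelled knockout and 153.3 CPM in the control. CHEK1, a DNA damage kinase, had 109.0 and 103.9 CPM. SMN1, SMN2 and MAPT did not reach the minimum mean, and SMN1 and SMN2 are near-identical copies whose reads counting can lose. A level of the whole gene does not report on the inclusion of an exon.

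**Figure D5:**
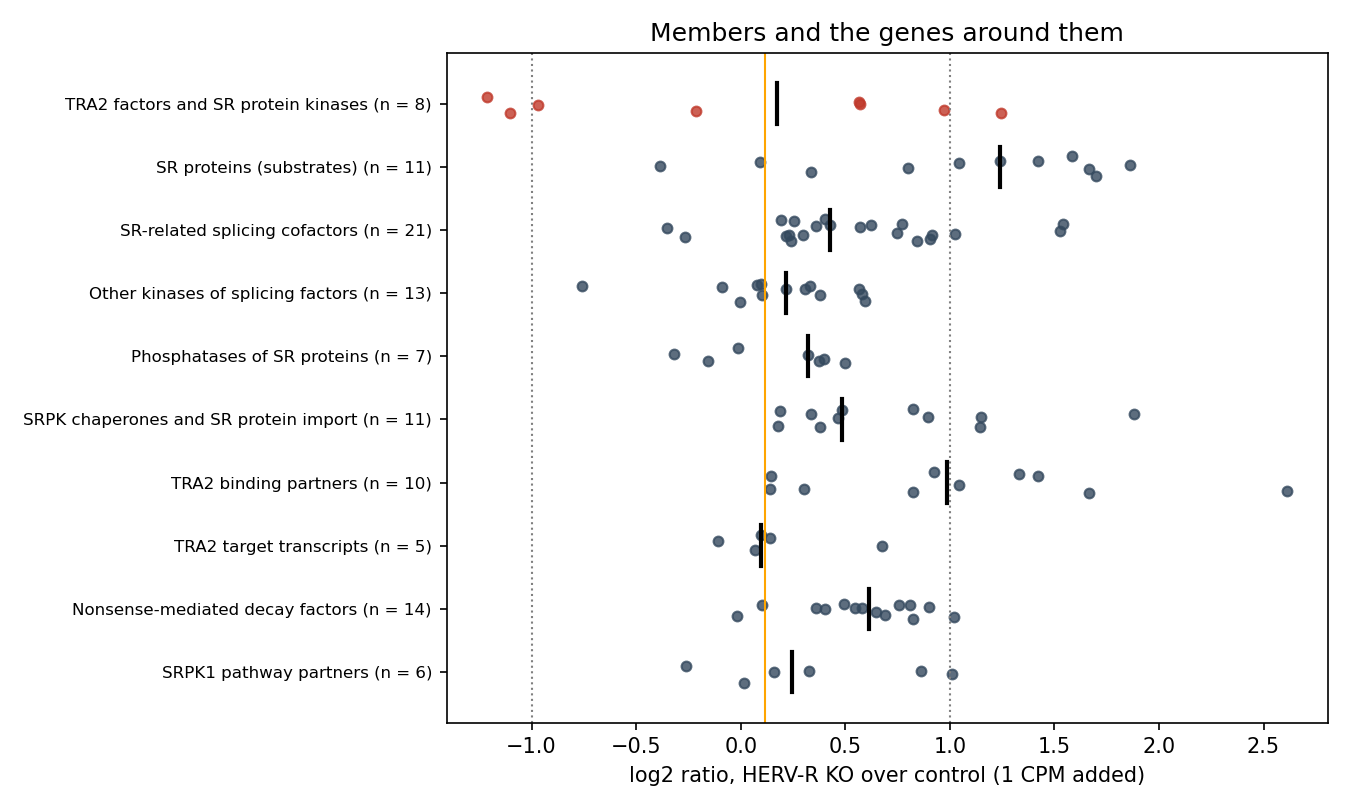
Log2 ratio (library labelled HERV-R KO over control, 1 CPM added) of each measured gene, for the 8 members (red) and the 9 lists (dark); black bars are medians, the orange line is the median of all compared genes (0.12) and dotted lines mark -1 and 1. CLK1 and CLK3 lie left of -1, where no gene of the 9 lists lies, and the median of the SR proteins lies at 1.24. The added 1 CPM understates the ratio of genes with low counts, such as DYRK3.

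The genes whose pair of levels lay closest to those of the members past the rule were found by distance in the plane of log2(CPM + 1) over the 2 libraries. For TRA2A they were DBNL (117.6 CPM in the library labelled knockout and 49.2 CPM in the control; distance 0.0027), HSD17B10 and NCAPG. For CLK1 they were CNN3 (40.8 and 100.4 CPM; distance 0.058), UBL3 and SMIM3, and for CLK3 they were TNFRSF12A (45.7 and 98.6 CPM; distance 0.032), UBL3 and APOBEC3B. With 2 libraries, likeness means only similar levels in both.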

How the data were processed

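RNA of both libraries (1.3 ug each) was isolated with Trizol, per the labels' protocols, and sequenced after directional library preparation. Raw whole-number counts per gene were deposited for each library by the authors. TopHat and GRCh38 are named in the submitters' processing notes; the counting program, annotation and filters are not named in the sources at hand. Each table has 58173 rows. Rows of 1 symbol were summed to 52402 symbols and scaled to CPM by the library total (16406308 counts in the library labelled knockout, 21881122 in the control). The compared genes had a mean of 1 CPM or more, and the log2 ratio was taken after adding 1 CPM, which understates changes of low genes.

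Intervals are exact: Clopper-Pearson for a ratio of 2 libraries, Poisson for a level, and conditional on the margins for a quotient (scipy 1.17.1). They cover counting error only, and PCR duplicates make them too narrow. Alternative scalings used edgeR 4.0.16 (TMM, upper quartile) and DESeq2 1.42.0 (median of gene ratios); other alternatives changed the pseudocount, the minimum mean and the fold. The members and lists were chosen with earlier results of these data known. From each list the 2 most abundant measured genes and up to 4 genes past the size rule were to be named. For each member past it the 3 nearest genes were to be named. DYRK3, SCAMP3, FDPS, THBS3, MTX1, KMT2E, SRPK3, SRSF4, SRSF11, SMN1, SMN2 and MAPT were chosen after their values were seen. Values of 2 of the genes so chosen are left out here. Positions and transcripts come from GENCODE 29 (GRCh38).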

Additional observations from a re-analysis of the deposited data

How the results depend on the processing

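No paired analysis was possible because each group has 1 library, and for the same reason no replicate could be left out. Each member kept the direction of its ratio under every alternative tried, except that CLK2 had no value at a minimum mean of 5 CPM. With TMM the CPM ratio was 2.20 for TRA2A, 1.81 for TRA2B, 0.422 for CLK3, 1.37 for SRPK1 and 0.791 for SRPK2, and the summed ratios were 1.95 for TRA2, 0.422 for CLK and 1.17 for SRPK. With the upper quartile the ratios were 2.17 (TRA2A), 1.79 (TRA2B), 0.385 (CLK1), 0.417 (CLK3), 1.35 (SRPK1) and 0.780 (SRPK2), and the sums 1.92 (TRA2), 0.416 (CLK) and 1.15 (SRPK). With the median of gene ratios they were 2.15 (TRA2A), 1.77 (TRA2B), 0.381 (CLK1), 0.412 (CLK3), 1.33 (SRPK1) and 0.771 (SRPK2), and the sums 1.90 (TRA2), 0.411 (CLK) and 1.14 (SRPK). These scalings multiply every ratio by 1 factor. At 1.5-fold, 5 members passed, 2 of them higher (TRA2A and TRA2B) and 3 lower (CLK1, CLK3 and CLK4); at 3-fold, 0 passed, with 0 higher and 0 lower. CLK4 passed the 2-fold rule with a pseudocount of 0.1 (-1.02) and missed it with 1. The median of the TRA2 target list turned to -0.0217 with TMM, -0.0416 with the upper quartile and -0.0579 with the median of gene ratios. Over all alternatives, the fold included, the count of higher genes differed by over 1.5 times from the count given, or appeared or vanished, in 21 of 81 list and setting pairs, and that of lower genes in 2 of 81. Depth limits CLK2 most, at 60 and 47 counts.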
